A study of Mus musculus with 2 samples.

Results

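The major histocompatibility complex (MHC) genes of the mouse and the genes that supply their products with antigen were examined in the E18.5 ureter. Members were all genes on the array whose name began with H2-, together with B2m, Cd74, Ciita, Nlrc5, Tap2, Tapbp, Tapbpl, Cd1d1, Cd1d2, Erap1, Psmb10 and Psme1. They numbered 51 of 29923 genes on the array and were read by 72 probes. No probe carried the name Psme2, which was on the same list of names. Total RNA of pooled ureters from E18.5 embryos of the outbred NMRI strain was compared on 2 two-colour arrays. On each array a Pparg-cKO pool, with genotype Pax2-cre/+; Pparg(fl/fl), was set against a control pool of genotype Pparg(fl/?), in which the second allele was not stated. The pools of replicate 1 came from females and those of replicate 2 from males, and values given below for females or males are those of the array of that sex. Pparg encodes a nuclear receptor that is activated by fatty acids. Per the study's methods the floxed exons of Pparg were deleted in all tissues in which Pax2-cre had been active, which are the nephric duct, the ureteric epithelium and the collecting ducts, and the controls lacked cre. The mesenchyme, vessels and immune cells of the ureter are not among these tissues. Each pool held the RNA of several embryos.

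Class I molecules are made by nearly all nucleated cells and consist of a polymorphic heavy chain, such as those of H2-K1 and H2-D1, and the invariant light chain beta-2-microglobulin, encoded by B2m. Peptides cut by the proteasome are pumped into the endoplasmic reticulum by the Tap1/Tap2 transporter and loaded there with the help of tapasin, the product of Tapbp. Class II molecules are made mainly by dendritic cells, B cells and macrophages, travel with the invariant chain Cd74 and are switched on by the coactivator Ciita. Nlrc5 is the corresponding coactivator of class I genes, and interferon gamma acts on both sets, in part through the transcription factor Irf1. In epithelia such as the urothelium, class I molecules present peptides to T cells.

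Many class I genes are near-identical copies, and NMRI mice are outbred, so the probe sequences bear on what each value can mean. The following 60-base probes are examples, all measured above background, that share a run with a probe of another class I gene and have at least 1 reading frame open through the whole probe. Capitals mark the longest run shared with the probe named beside it. The positions are those of the array design on build mm9 and exon structure was not analysed here.
H2-K1, second probe, chr17:34133984-34134043, run shared with H2-T23: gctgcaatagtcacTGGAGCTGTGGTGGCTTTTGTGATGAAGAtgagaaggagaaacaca
H2-T23, chr17:36167338-36167574, run shared with H2-K1: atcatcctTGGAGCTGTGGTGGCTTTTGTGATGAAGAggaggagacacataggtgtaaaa
H2-Q2, second probe, chr17:35460007-35460066, run shared with H2-Q10: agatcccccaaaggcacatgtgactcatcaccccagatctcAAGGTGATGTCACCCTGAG
H2-Q10, chr17:35610036-35610095, run shared with H2-Q2: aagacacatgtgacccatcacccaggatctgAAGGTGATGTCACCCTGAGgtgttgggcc
H2-Q2, chr17:35482113-35482172, run shared with H2-Q8: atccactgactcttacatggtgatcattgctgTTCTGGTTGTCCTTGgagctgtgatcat
H2-Q8, chr17:35565247-35565306, run shared with H2-Q2: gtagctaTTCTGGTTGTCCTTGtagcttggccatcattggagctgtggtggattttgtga
The first pair shares a run of 29 bases, the second pair 19 and the third 15. A probe of H2-K2 and the probe of H2-Q7 share 28 bases, and a dim probe of H2-T3 and the second probe of H2-Q10 share 22. The design placed the second H2-Q2 probe beside H2-Q1 rather than beside the first H2-Q2 probe. A class I value is therefore a value of a probe that related transcripts may also reach, which was not tested. The class I genes cannot be taken as independent of each other.

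The arrays were of like quality. Each carried 157716 spots that were not controls, 66.2% to 77.3% of which were well above background per channel, and 0 were saturated. The median spot-to-spot SD of a tested member was 0.107 on the log2 scale in females and 0.118 in males. Markers of the tissue were present: Upk1b of the urothelium gave a processed signal of 5041 to 12083 and Acta2 of smooth muscle 44954 to 56274, whereas of 5 kidney markers Umod was not well above background in any pool and the other 4 were dim, up to 124.2 for Lrp2. Sex, dye orientation and array changed together and cannot be told apart.

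All signs follow the deposited table, which names its ratios Pparg-cKO versus control. They are opposite to the dye labels on both arrays. The labels put the control in the red channel (AlexaFluor647) of the female array and Pparg-cKO in the red channel of the male array, but the ratio of red to green signal correlated with the deposited ratio with r = 0.989 across probes in females and r = -0.993 in males. The deposited direction is also the one used in the text and tissue sections of the study, where urothelial genes such as Upk1b are reduced in the mutant; the Upk1b probe had the lower signal in the pools called Pparg-cKO here. Should the dye labels hold all the same, higher and lower exchange throughout, while sizes, counts and p-values stay. The Pparg probe read 12357 in the Pparg-cKO pool and 6113 in the control pool in females, and 12930 and 6688 in males, so that the library labelled Pparg-cKO in the deposited direction had the higher signal. The floxed allele leaves a Pparg transcript without the deleted exons, which the study's tissue sections describe as increased in mutants of this stage. Where the probe lies relative to those exons was not analysed here.

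Of the 51 genes, 43 were tested, which means that on both arrays 1 pool or more lay well above background at their probe. The study's methods asked for at least 1.5-fold on the individual arrays and an intensity of 100, read here as the same direction on both arrays and a processed signal of 100 or more in the brighter channel of each. This is called the fold rule, and 21 members were bright enough for it. None passed: 0 were higher and 0 lower, where 0.792% of the 14015 genes bright enough on the whole array were higher and 1.05% lower. In limma with Benjamini-Hochberg adjustment over 22499 genes, 0 members were called, where 0.378% of all tested genes were called higher and 0.364% lower. At an unadjusted p under 0.05 there were 2 members, H2-M3 and H2-Bl, or 4.65% of those tested, beside 8.44% of all tested genes. The lowest adjusted p of a member in limma was 0.432, for H2-M3. In pooled tissue, fewer cells of a type and less RNA per cell cannot be told apart.

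The mean log2 ratios of the members ran from -0.30 for H2-Bl to 0.37 for Tapbp, with a median of 0.03, beside a median of 0.01 over all tested genes. The 95% intervals from limma, unadjusted and resting on 2 arrays, lay within 1.5-fold either way for 40 of the 43 genes. Those of H2-M3, Tap2 and Tapbp reached beyond 1.5-fold on the upper side, the farthest being Tap2 with 0.89. The interval included 0 for 41 genes.

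The arrays gave opposite signs for 19 of 43 tested members, or 44.2%, beside 47.3% of all tested genes. Over the 43 tested genes, 15 were higher in Pparg-cKO on both arrays, which is a share to be read beside 26.7% of all tested genes. A further 9 were lower on both, where 26% of all tested genes were. Of the members whose arrays disagreed, 17 were higher on the male array only and 2 on the female array only, where 26.1% and 21.2% of all tested genes were. The median over the members was -0.04 in females and 0.09 in males, and over all tested genes -0.01 and 0.01.

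**Figure D1:**
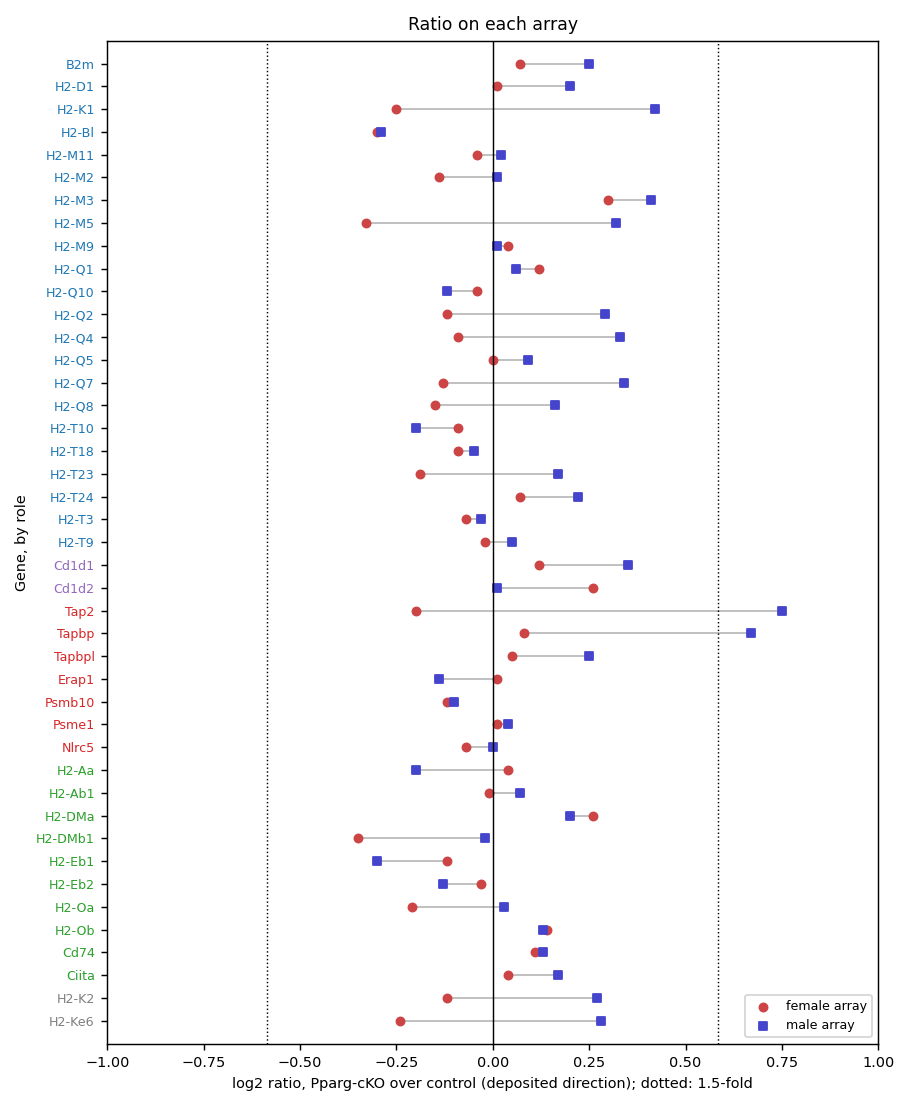
log2 ratio of Pparg-cKO over control (x axis, deposited direction) for each of the 43 tested genes (y axis, ordered and coloured by role: blue class I chains, purple CD1, red peptide supply, loading and Nlrc5, green class II and Ciita, grey other H2- symbols). Circles are the female array, squares the male array, and dotted lines mark 1.5-fold. No gene lies beyond 1.5-fold on both arrays, and only Tap2 and Tapbp lie beyond it on the male array.

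B2m encodes the light chain that all classical class I molecules share. Its processed signal was 14817 in the Pparg-cKO and 13958 in the control pool in females, and 14117 and 12078 in males. The pools thus differed little on both arrays, Pparg-cKO being the higher, with a mean log2 ratio of 0.16 (SD 0.13, n = 2 arrays, limma adjusted p = 0.793).

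The classical heavy chains are those that present peptides to most cytotoxic T cells. H2-K1 read 1846 in Pparg-cKO and 2169 in control in females, and 2628 and 2082 in males. Its order was reversed between the arrays, with log2 ratios of -0.25 and 0.42 and a mean of 0.08 (SD 0.47, limma adjusted p = 0.969). The second H2-K1 probe, printed above, had the same signs with smaller sizes, -0.12 and 0.14. H2-D1 read 1167 in Pparg-cKO and 1187 in control in females, and 1497 and 1276 in males, and its ratios after normalisation were 0.01 and 0.20 with a mean of 0.10 (SD 0.14, limma adjusted p = 0.902). On the female array the H2-D1 pools were level, and on the male array Pparg-cKO was the higher.

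The nonclassical class Ib chains, encoded by the H2-Q, H2-T and H2-M genes and H2-Bl, were 25 genes, of which 19 were tested and 10 were bright enough for the fold rule. H2-Q4 read 23104 and 23771 in Pparg-cKO and control in females and 26759 and 21948 in males, with log2 ratios of -0.09 and 0.33. H2-Q7, which encodes a Qa-2 antigen, read 739.8 and 805.8 and then 1000 and 790.0, with ratios of -0.13 and 0.34. H2-T23, whose product Qa-1 binds signal peptides of other class I chains and is seen by natural killer cell receptors, read 692.6 and 760.5 and then 899.4 and 859.7, with ratios of -0.19 and 0.17. These 3 genes shared the order of H2-K1, with Pparg-cKO the lower in females and the higher in males. H2-Q2 (-0.12 and 0.29) and H2-Q8 (-0.15 and 0.16) had it as well. H2-T10, a chain recognised by some gamma-delta T cells, did not: its log2 ratios were -0.09 in females and -0.20 in males.

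Over the 13 class I chains with signal enough for the fold rule, B2m included, 8 were lower in Pparg-cKO in females and higher in males, and 0 had the opposite pattern, where 25.9% and 21.2% of the genes of that brightness did. The median log2 ratio of these 13 was -0.12 in females and 0.17 in males. Over all 14015 genes of that brightness the medians were -0.01 and 0.02. Their number is a description, since the probes share sequence and a single pair of pools stands behind each array.

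H2-M3 and H2-Bl were singled out after their values were seen, as the members with an unadjusted p under 0.05. H2-M3 presents peptides that begin with formyl-methionine, as bacterial and mitochondrial ones do. It read 86.8 in Pparg-cKO and 67.4 in control in females and 102.8 and 70.9 in males, so that both Pparg-cKO pools lay above both controls. The mean log2 ratio was 0.35 (SD 0.08, unadjusted p = 0.0205, limma adjusted p = 0.432). Its signal on the female array was under the minimum of the fold rule. H2-Bl read 120.1 and 144.2 in females and 118.4 and 156.5 in males, so that both Pparg-cKO pools lay below both controls, with a mean of -0.30 (SD 0.01, unadjusted p = 0.0344, limma adjusted p = 0.528). The design gave no position for its probe. Neither gene passed the adjusted threshold.

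The remaining class Ib genes passed neither the fold rule nor, where tested, limma. H2-Q10, which encodes a secreted chain made in the liver, had log2 ratios of -0.04 and -0.12, H2-T9 of -0.02 and 0.05, and H2-M2 of -0.14 and 0.01. H2-Q1, H2-Q5, H2-T24, H2-T3, H2-T18, H2-M9 and H2-M11 had signals under 35 in all pools and mean ratios between -0.07 and 0.15. H2-M5 had opposite signs on the arrays, -0.33 and 0.32, at a probe with no RefSeq match. H2-M1 and the H2-M10 genes H2-M10.1, H2-M10.2, H2-M10.3, H2-M10.4 and H2-M10.6, known from sensory neurons of the vomeronasal organ, were not well above background in any pool and were not tested.

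**Figure D2:**
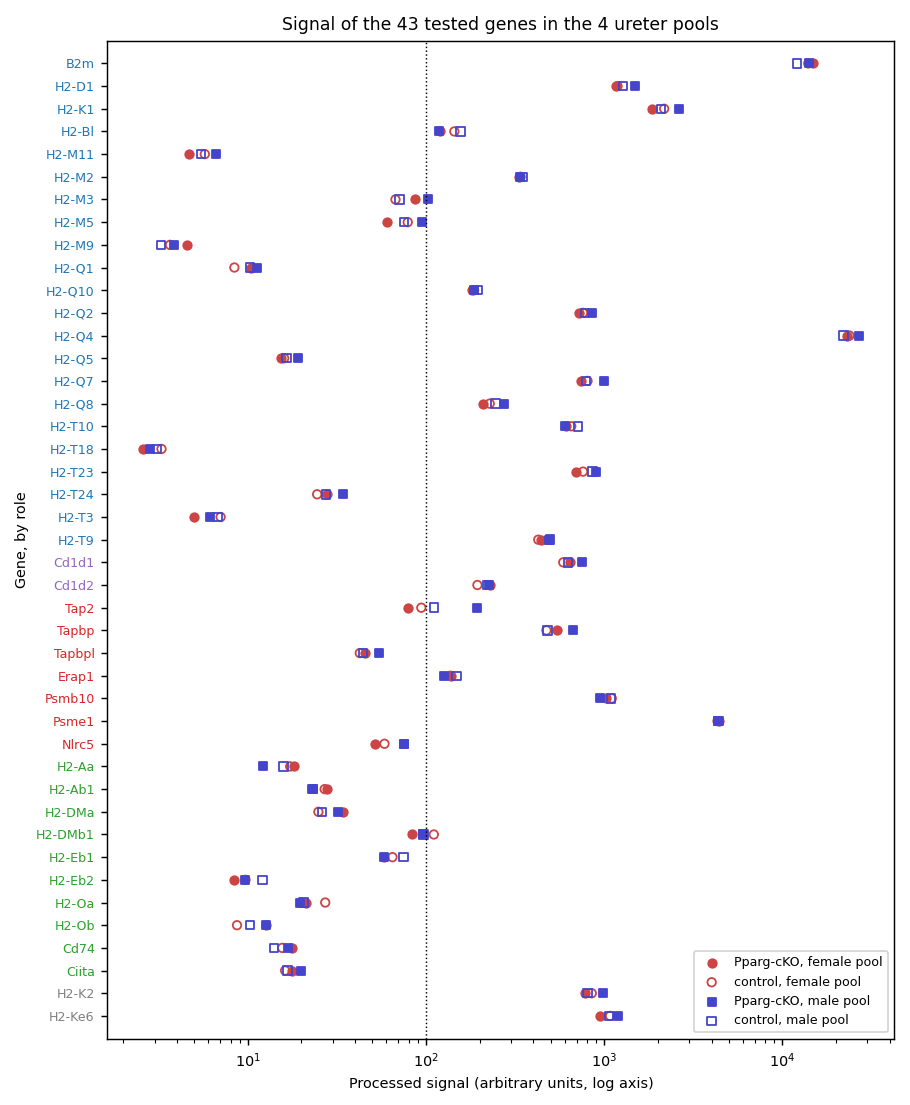
Processed signal (x axis, arbitrary units, log scale) of the 43 tested genes (y axis, by role) in each of the 4 pools. Filled symbols are Pparg-cKO, open symbols control, circles the female and squares the male array, and the dotted line is the signal of 100 used by the fold rule. The class II genes at the bottom lie between 8.33 and 110.6, and pools of a gene lie close together for nearly all genes.

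Tap2, which encodes a subunit of the peptide transporter, was the member whose arrays lay farthest apart. It read 79 in Pparg-cKO and 94.1 in control in females, and 194 and 111 in males. Pparg-cKO was thus the lower pool in females and the higher in males, with log2 ratios of -0.20 and 0.75 and a mean of 0.28 (SD 0.67, limma adjusted p = 0.852). Tapbp encodes tapasin, which holds empty class I molecules at the transporter. It read 540.5 and 474.1 in females and 669.7 and 481.2 in males. Both Pparg-cKO pools lay above the controls, by a log2 ratio of 0.08 and 0.67, with a mean of 0.37 (SD 0.42, limma adjusted p = 0.659).

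Tap2 and Tapbp were the members that exceeded 1.5-fold on a single array. On the male array alone, 23 members had the signal for the fold rule, and these 2 of them were higher in Pparg-cKO, where 6.84% of all genes bright enough on that array were. The share of members is near that background. On the female array alone 0 of 22 members were, where 1.24% of all genes were. On the male array 2.52% of all tested genes had a ratio as high as that of Tap2 and 3.45% one as high as that of Tapbp.

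The other genes of this route varied little. Tapbpl encodes TAPBPR, a tapasin-related peptide editor, and had signals of 42.5 to 54.2 and log2 ratios of 0.05 and 0.25 (limma adjusted p = 0.814). Erap1, which trims peptides in the endoplasmic reticulum, read 137.5 in Pparg-cKO and 136.7 in control in females and 125.6 and 147.9 in males, with ratios of 0.01 and -0.14 (limma adjusted p = 0.953). Psmb10, a catalytic subunit of the immunoproteasome, read 1025 and 1102 and then 949.1 and 1088. Its Pparg-cKO pools were the lower on both arrays, with a mean of -0.11 (SD 0.01, limma adjusted p = 0.879). Psme1, a subunit of the proteasome activator PA28, was level, at 4406 and 4321 in females and 4371 and 4378 in males, with a mean of 0.03 (SD 0.02, limma adjusted p = 0.986). Nlrc5 read 52 and 58.5 in females and 75.7 and 75.5 in males, with a mean of -0.03 (SD 0.05, limma adjusted p = 0.981).

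Cd1d1 and Cd1d2 present lipids to natural killer T cells. Cd1d1 read 643.9 in Pparg-cKO and 588.8 in control in females and 751.1 and 626.9 in males, the Pparg-cKO pool being the higher each time, with a mean of 0.23 (SD 0.16, limma adjusted p = 0.696). A second Cd1d1 probe gave 0.08 and 0.30 against 0.12 and 0.35 for the first. Cd1d2 had log2 ratios of 0.26 and 0.01 (limma adjusted p = 0.861).

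Class II was dim in the ureter. Of the 10 class II chain genes 8 were tested, and with Cd74 these 9 had signals between 8.33 and 110.6. None was bright enough for the fold rule, so that a change in class II could be judged by limma alone. Over the 9 genes the log2 ratios had a median of -0.08, -0.01 in females and 0.03 in males, and limma called 0, with 0 at an unadjusted p under 0.05. H2-DMb2 and H2-Ea-ps were not well above background in any pool.

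The peptide-binding chains H2-Aa, H2-Ab1 and H2-Eb1 passed neither the fold rule nor limma. H2-Aa read 18.2 in Pparg-cKO and 17.3 in control in females and 12.2 and 15.9 in males (mean -0.08, SD 0.17, limma adjusted p = 0.943). H2-Ab1 read 27.7 and 27 and then 23.3 and 23.1 (mean 0.03, SD 0.06, limma adjusted p = 0.986). H2-Eb1 was the lower in Pparg-cKO on both arrays, at 58.2 against 64.8 and 58.3 against 74.7 (mean -0.21, SD 0.13, limma adjusted p = 0.724). The 95% interval of each of these ratios included 0.

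H2-DM and H2-O act on peptide exchange in the endosome, H2-DM as the editor and H2-O as its inhibitor. H2-DMa read 34.1 in Pparg-cKO and 24.9 in control in females and 32.2 and 26.1 in males, both Pparg-cKO pools being the higher (mean 0.23, SD 0.05, limma adjusted p = 0.662). Its partner H2-DMb1 had the opposite sign, with log2 ratios of -0.35 and -0.02 (limma adjusted p = 0.797). H2-Oa had -0.21 and 0.03, and H2-Ob 0.14 and 0.13.

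The invariant chain Cd74 read 17.6 in Pparg-cKO and 15.6 in control in females and 16.8 and 14 in males, with a mean of 0.12 (SD 0.01, limma adjusted p = 0.858). Ciita read 17.6 and 16.2 and then 20 and 16.7, with a mean of 0.10 (SD 0.09, limma adjusted p = 0.896). The Ciita probe matched no RefSeq accession. The probe that matched Ciita was not well above background on both arrays, with signals of 1.74 to 2.51. Both Pparg-cKO pools were slightly above the controls at the Cd74 probe and at the brighter Ciita probe, and the 95% intervals included 0. The other symbols that began with H2- were H2-K2 and H2-Ke6, of which H2-Ke6 encodes a steroid dehydrogenase and takes no part in antigen presentation. Their log2 ratios were -0.12 and 0.27 for H2-K2 and -0.24 and 0.28 for H2-Ke6, the same order as that of H2-K1.

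**Figure D3:**
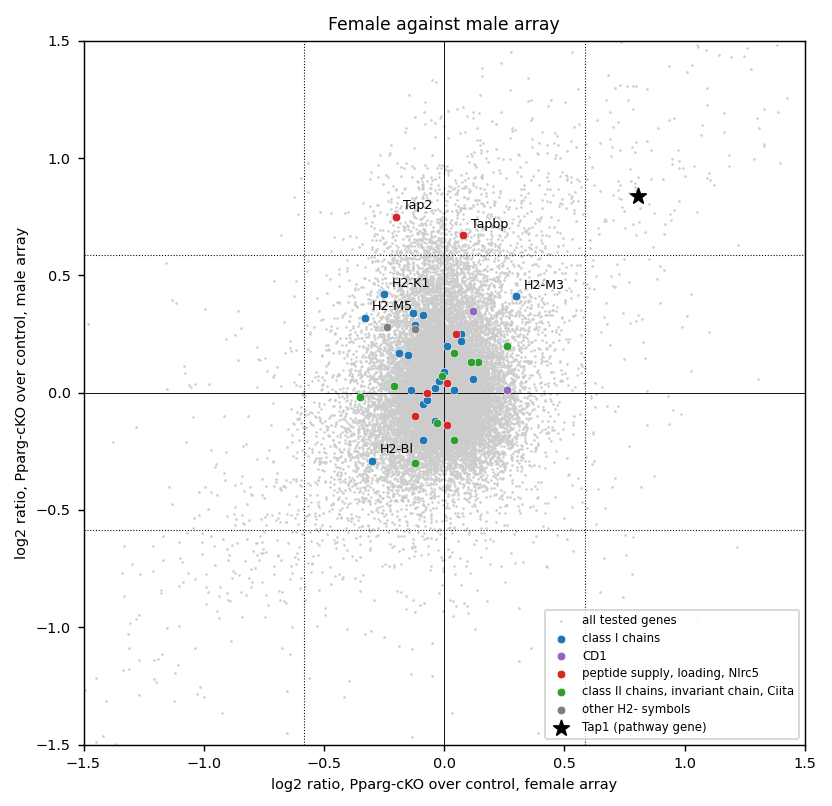
log2 ratio in females (x axis) against that in males (y axis), deposited direction, with all tested genes in grey, members in colour by role and Tap1 as a star; dotted lines mark 1.5-fold and 116 genes lie outside the plotted range. Members sit within the central cloud, Tap2 and Tapbp lie above the upper line on the male array only, and Tap1 lies beyond 1.5-fold on both.

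Genes around the pathway were read from lists chosen by name. The list of peptide supply and loading for class I held 13 genes, all tested: 1 passed the fold rule as higher, 0 as lower, and 0 were called in limma, with 3 at an unadjusted p under 0.05. The gene that passed was Tap1, the partner of Tap2 in the transporter. Tap1 read 267.8 in Pparg-cKO and 148.4 in control in females, and 285.2 and 146.6 in males. Both Pparg-cKO pools lay well above both controls, with log2 ratios of 0.81 and 0.84, a mean of 0.82 (SD 0.02) and a fold of 1.77, but the limma adjusted p was 0.0604. Over the alternatives run the adjusted p of Tap1 ran from 0.0115 to 0.533. Unlike Tap1, Tap2 had opposite signs on the arrays; the difference between these genes was not tested.

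The immunoproteasome subunits Psmb8 and Psmb9 lie next to Tap1 in the genome. Psmb8 read 205.1 in Pparg-cKO and 154.2 in control in females and 201.9 and 139.3 in males (mean 0.41, SD 0.05, limma adjusted p = 0.324). Psmb9 read 186.4 and 161.3 and then 187.1 and 157.6 (mean 0.20, SD 0.03, limma adjusted p = 0.722). Both genes thus had higher Pparg-cKO pools on each array without passing the fold rule or limma. Of the chaperones of the list, Calr had the higher Pparg-cKO pool on both arrays (0.20 and 0.24, limma adjusted p = 0.67) and Pdia3 the lower (-0.18 and -0.37, limma adjusted p = 0.613). Canx and Hspa5 had means of 0.06 and 0.05. Pdia2, also a protein disulfide isomerase, had a mean of -0.41 at signals of 18.4 to 39.4 (limma adjusted p = 0.33).

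Interferon gamma and STAT/IRF control was a list of 18 genes, of which 17 were tested, 0 passed the fold rule in either direction and 0 were called in limma (2 at an unadjusted p under 0.05). Its median log2 ratio was 0.05 in females and 0.28 in males. Ifng was not well above background in any pool. Irf1 read 952.3 in Pparg-cKO and 893.2 in control in females and 1119 and 930 in males (mean 0.20, limma adjusted p = 0.728). The Pparg-cKO pools of Irf1 were the higher on both arrays, by less than 1.5-fold. The genes at an unadjusted p under 0.05 were Irf9 (0.23 and 0.47) and Ifnar2, which ran the other way (-0.19 and -0.44). Irf7 (0.13 and 0.91), Stat2 (0.07 and 0.72) and Irf2 (-0.05 and 0.67), picked after their values were seen, were past 1.5-fold on the male array only, as Tap2 and Tapbp were. Of all genes bright enough on the male array, 6.84% were higher by at least 1.5-fold there. Irf7, at signals of 16.5 to 50.5, was under the minimum of the fold rule, and Irf3 (-0.13 and 0.53) had a like gap between arrays without reaching 1.5-fold.

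The list of class II regulators and endosomal processing held 15 genes, all tested, with a median of 0.11 and 0 past either rule. Nfya (0.01 and 0.74), picked after its values were seen, was also past 1.5-fold on the male array only. Ctss, the protease that removes the invariant chain, had a mean of 0.33 (limma adjusted p = 0.529). MHC-like molecules gave 9 measured of 10 listed, 8 tested, a median of -0.01 and 0 past either rule. Costimulation and checkpoint ligands gave 7 tested of 8, a median of 0.04 and 0 past either rule. In these 3 lists there was 1 gene at an unadjusted p under 0.05, Ctss.

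**Figure D4:**
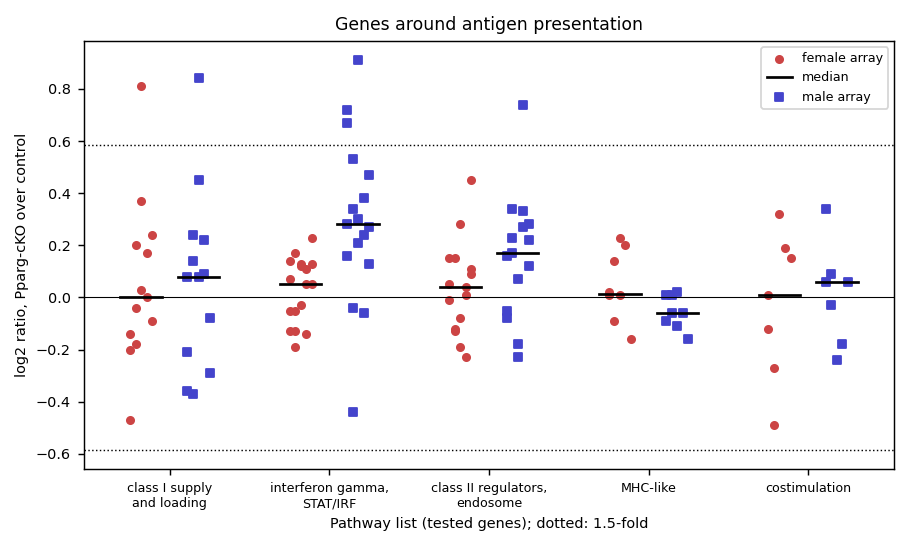
log2 ratio of Pparg-cKO over control (y axis, deposited direction) for the tested genes of 5 pathway lists (x axis), with circles for the female array, squares for the male array, black bars for medians and dotted lines at 1.5-fold. The interferon gamma and STAT/IRF list has medians of 0.05 and 0.28, and Tap1 is the gene above the upper line on both arrays in the first list.

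Cell types that carry MHC molecules were followed by marker lists. All 18 myeloid markers were tested; 0 passed the fold rule or limma, the median log2 ratio was 0.14 in females and 0.02 in males, and the summed signal was 22731 in Pparg-cKO and 20208 in control in females and 19903 and 20328 in males. Itgam made up much of this sum. The part of these cells in the class I values was not tested. For dendritic cells 6 of 8 markers were tested, with Itgax and Xcr1 not well above background in any pool. For B cells 3 of 5 were tested, Ms4a1 and Pax5 not being above background. For T and NK cells 3 of 8 were tested, Cd3d and Cd3g being below background in all pools. In these 3 lists and in those of mast cells and neutrophils, endothelium, smooth muscle, kidney and blood, 0 genes passed the fold rule and 0 were called in limma. At an unadjusted p under 0.05 there were 2 myeloid genes and 1 endothelial gene in all of these lists.

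The urothelium is the tissue of the ureter in which Pparg was deleted. Of its 8 markers 1, Upk1b, passed the fold rule as lower (log2 ratios -1.30 and -0.73, limma adjusted p = 0.116). The list's summed signal was 36177 in Pparg-cKO and 59667 in control in females, and 47813 and 51301 in males, with medians of -0.63 and 0.04. Cdh1, the epithelial cadherin, had ratios of 0.07 and 1.11. In limma 0 of the 8 were called, with 5 at an unadjusted p under 0.05, beside 8.44% of all tested genes. Of these 5, Upk1b, Upk2, Krt18 and Trp63 had lower Pparg-cKO pools on both arrays, and Epcam, an epithelial adhesion molecule, had higher ones (0.41 and 0.48). The median of the urothelial markers, as that of the class I probes, was lower in females than in males, and their part in the class I values was not tested.

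Members on chromosome 17 lay between positions 34065963 and 37618439 of build mm9, the stretch that holds the H2 complex. It held 198 other genes of the array by probe position, 155 of them tested. Among these, 58 were higher in Pparg-cKO on the male array only and 19 in females only, beside the 26.1% and 21.2% of all tested genes, and the medians were -0.02 in females and 0.12 in males. The 31 tested members on the chromosome had medians of -0.07 and 0.13. These neighbours, among which Tap1, Psmb8 and Psmb9 were counted, thus had a male median close to that of the members. Of the neighbours 2 passed the fold rule as higher, Tap1 and Sfta2, the latter a surfactant-associated gene with a mean of 1.19 and a limma adjusted p of 0.0332.

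Promoter letters were read because the classical class I genes H2-K1 and H2-D1 were both higher in Pparg-cKO on the male array. Neither gene was called in limma. There were 33 member genes with a RefSeq promoter on build GRCm38.p6 (36 promoters, each 250 bases before to 50 after a start). Of these genes, 8 held the letters GAANNGAAA: H2-D1, H2-K1, H2-M2, H2-M3, H2-Q10, H2-Q4, H2-Q7 and Psme1. Counted by promoter this was 9 of 36, where 7.52% of all 32851 promoters held them. These letters are 1 exact spelling and spacing related to the interferon-stimulated response element. Other spacings of that element were not searched, so the counts do not measure it. The letters GGGATTCCC, 1 exact spelling of an NF-kappaB site, stood in 4 of 36 promoters, of H2-D1, H2-K1 and H2-Q7, and in 0.353% of all. No other NF-kappaB spelling was searched, and H2-K1 entered both counts through overlapping promoters. The Y-box letters ATTGG, bound by the NF-Y factor, stood in 29 of 36 and in 37.4% of all. Both strands were searched and matches of different motifs overlapped in 0 member promoters. The 50-base stretches around the first match are given 5′ to 3′ on the gene's strand for H2-K1, H2-D1, H2-Q7 and H2-Q4, chosen because they hold a match and were higher in Pparg-cKO on the male array, with matched letters of these first 2 motifs in capitals.
H2-K1, chr17:34000418-34000467, minus strand: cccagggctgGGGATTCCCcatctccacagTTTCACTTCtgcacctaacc
H2-D1, chr17:35262914-35262963, plus strand: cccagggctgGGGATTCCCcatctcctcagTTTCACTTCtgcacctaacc
H2-Q7, chr17:35439012-35439061, plus strand: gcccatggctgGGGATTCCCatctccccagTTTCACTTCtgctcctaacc
H2-Q4, chr17:35379434-35379483, plus strand: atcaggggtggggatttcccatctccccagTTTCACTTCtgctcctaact
GAANNGAAA stands on the opposite strand in all 4, and GGGATTCCC on the gene's own strand in all but H2-Q4. There H2-Q4 reads ggggatttccc, a related spelling that was not searched. In females and males the log2 ratios were -0.25 and 0.42 for H2-K1, 0.01 and 0.20 for H2-D1, -0.13 and 0.34 for H2-Q7 and -0.09 and 0.33 for H2-Q4. The male values of these 4 were fixed by the choice and say nothing about the motifs. Of the others that hold the first motif, H2-M3 had 0.41 there, Psme1 0.04, H2-M2 0.01 and H2-Q10 -0.12. Tapbp, whose male ratio of 0.67 was the highest of the members with a promoter here, holds neither of these exact spellings. Nor do B2m (0.25 in males) or H2-Q2, H2-T23 and H2-Ke6, which shared the order of H2-K1. The B2m promoter reads gaaactgaaaatgggaaagtccc, however, and that of Erap1 tttcactttc, which are related spellings that were not searched. Absence of the searched letters therefore does not show that a promoter lacks either element. In the promoters of Tap1, Psmb8 and Psmb9 none of the windows held GAANNGAAA or GGGATTCCC, and related spellings were not searched there either. A match is a description of letters and not a site at which binding was measured.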

How the data were processed

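Members and lists were chosen with earlier results of these data known. Per the file headers the scanner files (Agilent Feature Extraction 10.7.3.1) held spot intensity: mean signal, local background, a processed signal corrected by the authors' software and the log10 ratio of its channels. The deposited value table held a score per probe, a signed fold change, for which 99% of values lay within 0.183 (females) and 0.164 (males) on the log2 scale of ratios of the processed signal with a floor of 6. Here mean signals were corrected with normexp (offset 50), and a loess curve fitted per array in limma 3.58.1 (R 4.3.3) removed dye bias, control spots having no weight and outlier-flagged spots (2.87% and 3.24%) left out. The spots of a probe were averaged and a gene took its brightest probe. The limma test was two-sided on the 2 turned log2 ratios (residual degrees of freedom 1), and 2 arrays limit its precision. The pools are the replicates; no source says that they came from separate litters, so that p-values measure only the spread between these pools. Genes named with values in every pool were chosen by name, beside any past the fold rule or limma and, after their values were seen, H2-M3, H2-Bl, H2-Q4, H2-Q7 and H2-T23. The values of 1 such gene are not reported here. Of the 72 probes 56 matched a RefSeq accession. Alternatives were other background corrections, centring, probe summaries, thresholds, moderation, the deposited table and single arrays.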

Additional observations from a re-analysis of the deposited data

Results flagged for a closer look

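H2-M5, a class Ib gene, differed in direction between the female and the male array. Its log2 ratio of Pparg-cKO over control was -0.33 in females and 0.32 in males, so that the male minus female ratio was 0.65, with each pair of pools more than 1.2-fold apart. The difference was not tested, since each sex had 1 array. It was 1 of 43 tested members (2.33%), where 314 of 22499 tested genes (1.4%) did the same. The probe behind this value matched no RefSeq accession, and the H2-M5 probe that did, at signals of 3.62 to 4.89, gave 0.00 and -0.11 and no opposite direction.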

How the results depend on the processing

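No member passed the fold rule with normexp without offset, the scanner's processed signals, median centring, the median over all probes or the deposited table. The same held for a signal of at least 200 (1.64% of all genes bright enough passed), a fold of 1.3 (3.45%) and no signal threshold (1.2%). The dye labels as written exchange the signs on both arrays, so that counts could not change with them. With a single array kept, the count was 2 without replicate 1 (Tap2 and Tapbp, on the male array, where 8.81% of all genes passed in either direction) and 0 without replicate 2 (3.16%). limma called 0 members under each alternative run, with 1 to 6 at an unadjusted p under 0.05. The shares of all genes called under these alternatives are not given here, so these counts have no background beside them. With the scanner's processed signals Tap1 too was not called (limma adjusted p = 0.529). The median log2 ratio of the members ran from -0.040 without replicate 2 to 0.095 without replicate 1. Of the named genes, 2 changed sign with median centring, Nlrc5 to 0.05 and Erap1 to 0.03 (both limma adjusted p = 1), and the cause was not tested. Tap1 was called in limma with normexp without offset (mean 0.86, adjusted p = 0.0115; range over the alternatives 0.0115 to 0.533). The test on the ratios within each array is itself paired, and no fit without this pairing was run. The class II probes, with signals up to 110.6, were too dim to be judged by the fold rule.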
